A study of Mus musculus with 3 samples.

Results

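The Ms4a genes described here are 9 of the 27998 genes counted in the series: *Ms4a1*, *Ms4a2*, *Ms4a3*, *Ms4a4b*, *Ms4a4c*, *Ms4a6b*, *Ms4a6c*, *Ms4a6d* and *Ms4a7*. They were chosen by name, and each had at least 1 UMI in every library. The series profiled single CD133+ bone marrow cells of C57BL/6 mice, sorted by flow cytometry for the surface protein CD133 (the product of *Prom1*), which the study calls endothelial-like cells and compares with age. There were 3 libraries, called control, young and old, with 1 library per condition and the cells of 3 mice combined for sequencing, so that the spread between mice could not be measured and no test between libraries was made. Control and young mice are labelled 3 months old, and the old mice 27 months by the sample label but 18.5 months in the description of the series. The series description also names intestinal cells, whereas every sample is labelled bone marrow. No treatment or transgene is given for any of the 3 libraries.

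The Ms4a proteins are small membrane proteins that cross the membrane several times, and their genes lie together in 1 cluster of the genome. *Ms4a1* encodes CD20 of B cells, *Ms4a2* the beta chain of the high-affinity IgE receptor of basophils and mast cells, and *Ms4a3* is known from granulocyte and monocyte progenitors of the marrow. The *Ms4a4* and *Ms4a6* genes and *Ms4a7* are known mainly from monocytes, macrophages and lymphocytes.

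A unique molecular identifier (UMI) stands for 1 captured mRNA molecule. A level, in CPM, is the gene's share of all UMIs counted in a group of cells, times 1000000, so that a library with more reads does not get higher levels. Ranges in brackets are exact 95% intervals and cover counting error only. After filtering, 9780 control, 7378 young and 9681 old cells remained, with 74708327 to 119588365 UMIs per library. Pairs of libraries had between 120 and 161 cell barcodes in common. Cells were placed by at least 2 UMIs of each of 2 genes, which gave 9 control, 97 young and 11 old monocyte-like cells (*Csf1r* and *F13a1*), 10, 32 and 4 basophil-like cells (*Prss34* and *Mcpt8*) and 12, 105 and 2 B-like cells (*Cd79a* and *Vpreb3*). Of the markers that had not chosen them, 6 of 8 were at least 10 times above the other cells in each monocyte-like class, and 5 or 6 of 8 in each basophil-like class. In the B-like class it was 7 of 7 in control and young cells but 3 of 7 in the 2 old cells. Further pairs of genes set apart macrophage-like, dendritic-like, NK-like and T-like cells and a few eosinophil-like, mast-like and erythroid-like cells. The remaining 9724 control, 6975 young and 9649 old cells carried granule genes and are called neutrophil-lineage cells. They made up 99.4% of the kept control, 94.5% of the young and 99.7% of the old cells. The limit used, at least 10 UMIs over 10 granule genes, left out 0 cells, so that the name went to every cell not placed by a pair. It takes in 30 control, 312 young and 53 old cells with few granule genes, described below.

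The members occupied 391 kb of chromosome 19 (GRCm38, 11249675 to 11640851), 4 on the plus and 5 on the minus strand. *Ms4a1* stood at one end (11249675 to 11266241) and *Ms4a3* at the other (11629496 to 11640851), with *Ms4a2* (11615523 to 11623719) next to *Ms4a3*. Between them, from low to high coordinates, were *Ms4a7*, *Ms4a4c*, *Ms4a4b*, *Ms4a6c*, *Ms4a6b* and *Ms4a6d*. Annotated genes on the other strand overlapped *Ms4a1*, *Ms4a4c*, *Ms4a6b* and *Ms4a6c*, and whether the counting used strand is not stated. Near their 3′ ends, where this kit reads, 24.8% of the 31-base words of *Ms4a4c* transcripts were found in another gene, mostly *Ms4a4b*, and 19.7% of those of *Ms4a6c* were found in *Ms4a6b*. The other 7 members had 0% shared words, and the values of both gene pairs are therefore less certain than the rest.

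Promoter windows from RefSeq (GRCm38.p6, 250 bases before to 50 after the start of transcription) matched 7 of the 9 members. Those of the paralogue pairs are shown because the members of each pair, although similar in sequence, were found in partly different cells. Each is written 5′ to 3′ in the direction of transcription, and the capitals mark the longest run of bases that the pair shares, 48 bases for *Ms4a6b* and *Ms4a6c* and 20 bases for *Ms4a4b* and *Ms4a4c*.
Ms4a6b (GRCm38.p6, chr19:11518309-11518608, plus strand): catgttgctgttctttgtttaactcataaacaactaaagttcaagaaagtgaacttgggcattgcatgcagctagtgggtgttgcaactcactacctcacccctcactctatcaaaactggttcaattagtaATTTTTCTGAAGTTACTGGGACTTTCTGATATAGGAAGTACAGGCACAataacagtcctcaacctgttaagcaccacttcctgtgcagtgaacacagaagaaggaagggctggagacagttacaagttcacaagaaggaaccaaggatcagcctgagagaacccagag
Ms4a6c (GRCm38.p6, chr19:11469118-11469417, plus strand): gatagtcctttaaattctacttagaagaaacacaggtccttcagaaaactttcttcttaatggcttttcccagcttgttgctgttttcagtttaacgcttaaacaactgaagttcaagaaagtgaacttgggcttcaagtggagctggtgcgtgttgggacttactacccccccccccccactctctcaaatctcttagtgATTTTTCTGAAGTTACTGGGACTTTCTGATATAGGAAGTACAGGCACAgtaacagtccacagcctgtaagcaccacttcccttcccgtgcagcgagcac
Ms4a4b (GRCm38.p6, chr19:11443308-11443607, plus strand): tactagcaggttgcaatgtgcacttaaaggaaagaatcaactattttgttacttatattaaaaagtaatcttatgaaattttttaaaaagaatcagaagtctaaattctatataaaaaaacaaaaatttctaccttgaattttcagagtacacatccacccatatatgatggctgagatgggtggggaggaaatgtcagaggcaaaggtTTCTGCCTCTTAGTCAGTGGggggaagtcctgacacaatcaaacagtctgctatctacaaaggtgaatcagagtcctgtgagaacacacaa
Ms4a4c (GRCm38.p6, chr19:11407411-11407710, plus strand): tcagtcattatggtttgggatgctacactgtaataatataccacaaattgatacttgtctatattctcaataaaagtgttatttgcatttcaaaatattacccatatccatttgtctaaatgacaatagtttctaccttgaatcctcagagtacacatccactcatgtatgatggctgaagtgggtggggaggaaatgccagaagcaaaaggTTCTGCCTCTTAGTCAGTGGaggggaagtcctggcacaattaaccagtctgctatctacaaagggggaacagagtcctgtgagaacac
Aligned over the whole window, *Ms4a4b* and *Ms4a4c* were 72.1% identical and *Ms4a6b* and *Ms4a6c* 51.2%, beside 50.1% for *Ms4a2* and *Ms4a3*. The shared run of the *Ms4a6* pair began at base 133 of the *Ms4a6b* window and at base 202 of the *Ms4a6c* window. The letters GAAANNGAA, a simple form of the element bound by interferon-activated factors, were in the windows of *Ms4a6b*, *Ms4a6c* and *Ms4a7*, on either strand, and in 8.56% of all 32851 RefSeq promoter windows of this length. In *Ms4a6b* and *Ms4a6c* the match read GAAAGTGAA, 206 and 133 bases before the start. It was not in the windows of *Ms4a4b* and *Ms4a4c*. The letters GAGGAAGT (a form of the PU.1 site, in 3.20% of windows) were in none of the members' windows. A match is a description of letters and not a binding site.

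The windows of *Ms4a3* and *Ms4a2*, the neighbours with the highest levels in young basophil-like cells, are shown with 2 other simple motifs in capitals: TTGCNNAA (a form of the C/EBP site, in 10.8% of windows) in *Ms4a3* and AGATAA, on either strand (a form of the GATA site, in 11.2% of windows), in *Ms4a2*.
Ms4a3 (GRCm38.p6, chr19:11640802-11641101, minus strand): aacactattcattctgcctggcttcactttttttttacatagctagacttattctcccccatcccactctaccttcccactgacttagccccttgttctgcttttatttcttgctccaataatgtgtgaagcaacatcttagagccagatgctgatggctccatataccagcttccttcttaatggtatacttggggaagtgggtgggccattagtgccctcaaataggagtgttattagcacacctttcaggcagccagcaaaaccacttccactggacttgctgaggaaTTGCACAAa
Ms4a2 (GRCm38.p6, chr19:11623670-11623969, minus strand): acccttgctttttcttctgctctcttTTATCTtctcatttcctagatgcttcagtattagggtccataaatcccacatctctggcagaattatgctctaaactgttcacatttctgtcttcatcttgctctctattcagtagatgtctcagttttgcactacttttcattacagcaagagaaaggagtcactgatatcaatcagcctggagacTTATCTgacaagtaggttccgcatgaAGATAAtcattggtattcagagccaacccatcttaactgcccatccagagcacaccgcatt
The *Ms4a3* match began 41 bases after the start, and the 3 matches of *Ms4a2* lay 224, 37 and 11 bases before it.

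*Ms4a3* was the member of the neutrophil precursors. It had 1049.5 CPM in control, 879 in young and 915 in old kept cells, and at least 1 UMI in 93.7%, 87.1% and 93.8% of them. The neutrophil-lineage cells held 99.7% of its UMIs in the control, 98.2% in the young and 99.8% in the old library. Every other member was at or below 86.7 CPM over the kept cells of each library.

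Within the neutrophil lineage *Ms4a3* fell along the order of granule gene expression. Cells were ranked by the log2 ratio of 4 early granule genes (*Mpo*, *Elane*, *Prtn3*, *Ctsg*) to 6 later ones (*Ngp*, *Camp*, *Ltf*, *Lcn2*, *Retnlg*, *Mmp8*) and divided into 5 intervals, of which interval 1 holds the cells with the most early granule genes. In control cells *Ms4a3* had 2291, 1015, 546, 450.3 and 407 CPM in intervals 1 to 5. In young cells these levels were 2039, 841, 518, 374 and 315 CPM, and in old cells 2289.8, 970.5, 491, 369.5 and 320.2 CPM. Each library thus had its highest level in interval 1 and its lowest in interval 5. The level in interval 1 was 5.64 times (5.47 to 5.80) that in interval 5 in control cells, 6.48 times (6.31 to 6.65) in young and 7.15 times (6.97 to 7.34) in old cells. For *Elane*, which helps to define the index and so had to fall, the same contrast was 29.7 times in control cells. *Prom1*, the gene of CD133, was 2.06 times as high (1.85 to 2.29) in interval 1 as in interval 5 of the control library, so that *Ms4a3* separated the ends of the order more than *Prom1* did. The intervals are ranges of a score and not cell types: 274 of 26348 cells lay within 0.1 of the border between intervals 1 and 2, but 2087 within 0.1 of that between intervals 4 and 5.

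**Figure D1:**
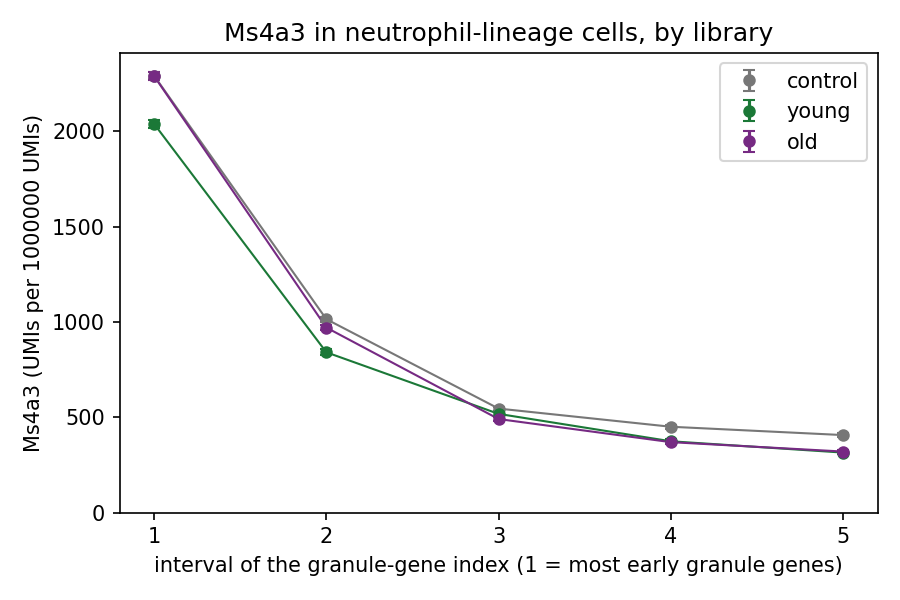
*Ms4a3* in the 5 intervals of the granule-gene index, in UMIs per 1000000 UMIs, with 1 line per library and exact 95% intervals as bars. All 3 libraries fall steeply from interval 1 to interval 2, and the control library ends highest, at 407 CPM against 315 in young and 320.2 in old cells.

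Free RNA in the droplets can give UMIs to cells that do not make a gene, and *Ms4a3* UMIs were also found in the lymphoid classes. In the young library, 56.5% of T-like, 53.3% of B-like and 74.1% of NK-like cells had an *Ms4a3* UMI, with median depths of 7825, 8453 and 9957 UMIs per cell. Their levels were 137 (91.9 to 197), 225 and 220.4 CPM. Monocyte-like cells, at 172 CPM (147 to 200.2) and 56.7% of cells with a UMI, lay within these values, so that no expression of their own is read from them. The source of these UMIs was not tested. The young neutrophil-lineage cells of interval 5 lay above them at 315 CPM. With every cell thinned to 3000 UMIs, an *Ms4a3* UMI was left in 55.9% of the interval 5 cells, against 26.1% of T-like, 32.4% of B-like and 29.6% of NK-like cells, and 0 cells were too shallow to be thinned.

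In the young and old libraries the level of *Ms4a3* in basophil-like cells overlapped that of neutrophil-lineage cells. Their level was 719 CPM (535 to 946) in 10 control cells, 994 (889 to 1109) in 32 young cells and 852 (590.2 to 1191) in 4 old cells. The neutrophil-lineage levels were 909.7 CPM in young and 917 in old cells, inside the intervals of the basophil-like ones, but 1051 in control cells, above the basophil-like interval. In young basophil-like cells 84.4% kept an *Ms4a3* UMI after thinning, above each of the lymphoid classes. They had 16.3 *Ms4a3* UMIs per 100 *Elane* UMIs, above the B-like (12.2) and NK-like (10.6) cells but below the T-like cells (23.8). In control basophil-like cells it was 64.6 against 14.7 in the library, and in old ones 148 against 19.5. With cells placed by graph clustering (Leiden, with Ms4a genes held out), the basophil-like cluster also carried 5 erythroid markers, and its *Ms4a3* was lower, at 350.1 CPM (315 to 387) in young cells.

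The cluster with the highest *Ms4a3* had no name from the markers and held 94 control, 46 young and 51 old cells. It was picked for *Ms4a3*, and its level of 4068, 3297 and 4053 CPM is a description. Its cells were on average shallower than the median kept cell of each library. They held 556109 control, 254794 young and 297773 old UMIs in all, and the kept medians were 9560.5, 10174 and 12690 UMIs per cell. The other members differed between libraries in this cluster. *Ms4a6c* had 25.2 CPM there in control, 863 in young and 63.8 in old cells. Both genes were found in the same cell in 6 of 94 control cells (6.38%), 26 of 46 young cells (56.5%) and 7 of 51 old cells (13.7%). *Irf8*, a transcription factor of monocyte and dendritic cell development, was at 5.39, 165 and 13.4 CPM, and *Cd34*, a progenitor surface protein, at 10.8, 114 and 3.36 CPM. *Elane* was high in all 3, at 38311, 38596 and 25815 CPM. The levels of *Ms4a6c*, *Irf8* and *Cd34* in this cluster were thus all highest in its young cells. *Prom1* and *Ngp* were lowest in its young cells. *Prom1* had 133 CPM in control, 43.2 in young and 154 in old cells, and *Ngp* 43758, 28953 and 71363 CPM.

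*Ms4a2* marked the basophil-like cells. It had 691 CPM (511 to 913) in control, 724 (634 to 822) in young and 576.5 (365 to 865) in old basophil-like cells, with overlapping intervals, and was found in 80.0%, 84.4% and 100% of them. In young B-like, NK-like and T-like cells 0 of its UMIs were counted, against a detection limit of 3.08, 10.7 and 14.2 CPM (3 counts). Neutrophil-lineage cells had 1.80, 2.12 and 0.906 CPM, and because they are so many they held 77.5% of its control UMIs, while the 32 basophil-like cells held 58.5% of its young UMIs. *Fcer1a*, the alpha chain of the same receptor, had 3102 CPM in control, 1170 in young and 2181 in old basophil-like cells and at most 0.987 CPM in neutrophil-lineage cells. *Fcer1g*, the gamma chain, which many myeloid cells use with other receptors, had 1315 to 1710.3 CPM in neutrophil-lineage cells and 1894 to 3046 in basophil-like cells. The beta and alpha chains thus had far higher levels in basophil-like than in neutrophil-lineage cells, whereas the gamma chain was abundant in both.

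*Ms4a1* lay in B-like cells, but thinly. It had 174 CPM (95.1 to 292) in control, 107 (87.1 to 129) in young and 103 (21.3 to 302) in old B-like cells, from 14, 104 and 3 UMIs. Only 14.3% of the young B-like cells had a UMI, and 1 of them held 25 of the 104. *Cd79b*, a part of the B cell receptor, stood at 596, 658 and 448 CPM in the same cells. Young monocyte-like, macrophage-like, NK-like and T-like cells had 0 *Ms4a1* UMIs.

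The dendritic-like cells had as much *Ms4a1*, at 206 CPM (129 to 312) in control, 115 (89.1 to 147) in young and 121 (66.0 to 203) in old cells. These cells were chosen by *Cd74* and *H2-Aa*, which B cells also use, and they carried *Cd79a* at 393, 142 and 198 CPM. In clusters the levels separated, with 144 CPM (123 to 167) in young B-like cells and 2.17 in young dendritic-like cells. In the old library the 9 dendritic-like cells had 14.8% of their UMIs from granule genes by the median cell, about the share of neutrophil-lineage cells, so that their label is weak.

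*Ms4a6c* was the most abundant member of the monocyte-like cells. It had 1057 CPM (861 to 1284) in 9 control, 1477 (1402 to 1556) in 97 young and 1165 (960.1 to 1401) in 11 old monocyte-like cells, and a UMI in 100% of them in each library. In the monocyte-like cluster, which holds more cells (36, 388 and 62), it had 1137, 1468 and 1091 CPM. Among the other classes of the young library it was next highest in dendritic-like cells (597 CPM), and NK-like cells had 14.2 CPM (3.87 to 36.4). A UMI of *Ms4a6c* was found in 68.8% of young basophil-like cells, and in 21.9% after thinning. In young B-like cells these shares were 14.3% and 5.71%.

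*Ms4a4c* and *Ms4a6d* had the same highest class in the young library. *Ms4a4c* had 324 CPM (220.4 to 460.4) in control, 962 (902 to 1026) in young and 329.9 (226 to 466) in old monocyte-like cells. It was also found in young dendritic-like (588 CPM) and T-like cells (359.8 CPM, 78.3% of cells). *Ms4a6d* had 94.2 CPM (43.1 to 179) in control, 88.1 (70.3 to 109) in young and 381 (269 to 526) in old monocyte-like cells. For *Ms4a6d* alone of these genes the old cells were highest, and the young monocyte-like interval overlapped that of dendritic-like cells (83.4 CPM).

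*Ms4a6b* was highest in T-like and monocyte-like cells of the young library. It had 476 CPM (433 to 521) in young monocyte-like and 573 (475 to 684) in young T-like cells, with overlapping intervals, and 209.8 CPM in NK-like cells. A UMI of *Ms4a6b* was also found in 71.9% of young basophil-like cells, and in 34.4% after thinning. In young B-like cells these shares were 17.1% and 5.71%. Its paralogue *Ms4a6c* had 71.0 CPM in T-like cells, mostly from 1 cell that held 13 of the 15 UMIs. Control and old monocyte-like cells had 146 (80.1 to 246) and 371 CPM (260.0 to 514) of *Ms4a6b*.

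*Ms4a4b*, a gene known from T and NK cells, was the most lymphoid member. It had 2353 CPM (2150.4 to 2569) in young T-like and 2055 (1891 to 2229.6) in young NK-like cells, and 67.3 CPM (52.0 to 85.8) in monocyte-like cells. The 27 NK-like and 23 T-like cells held 35.1% and 30.2% of the young *Ms4a4b* UMIs. The control library had 1 NK-like and 1 T-like cell and the old library 1 NK-like cell, too few to compare.

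*Ms4a7*, known from macrophages, was highest in the young macrophage-like cells, at 269.8 CPM (203 to 352), where 33.3% of 21 cells had a UMI. The median cell of that class had 13.3% of its UMIs from granule genes, so that its label is weak too. Dendritic-like cells followed at 97.7 CPM (73.6 to 127), and monocyte-like cells had 8.29 CPM (3.58 to 16.3). The control library held 20 *Ms4a7* UMIs, all in neutrophil-lineage cells, where at most 2 were in 1 cell.

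**Figure D2:**
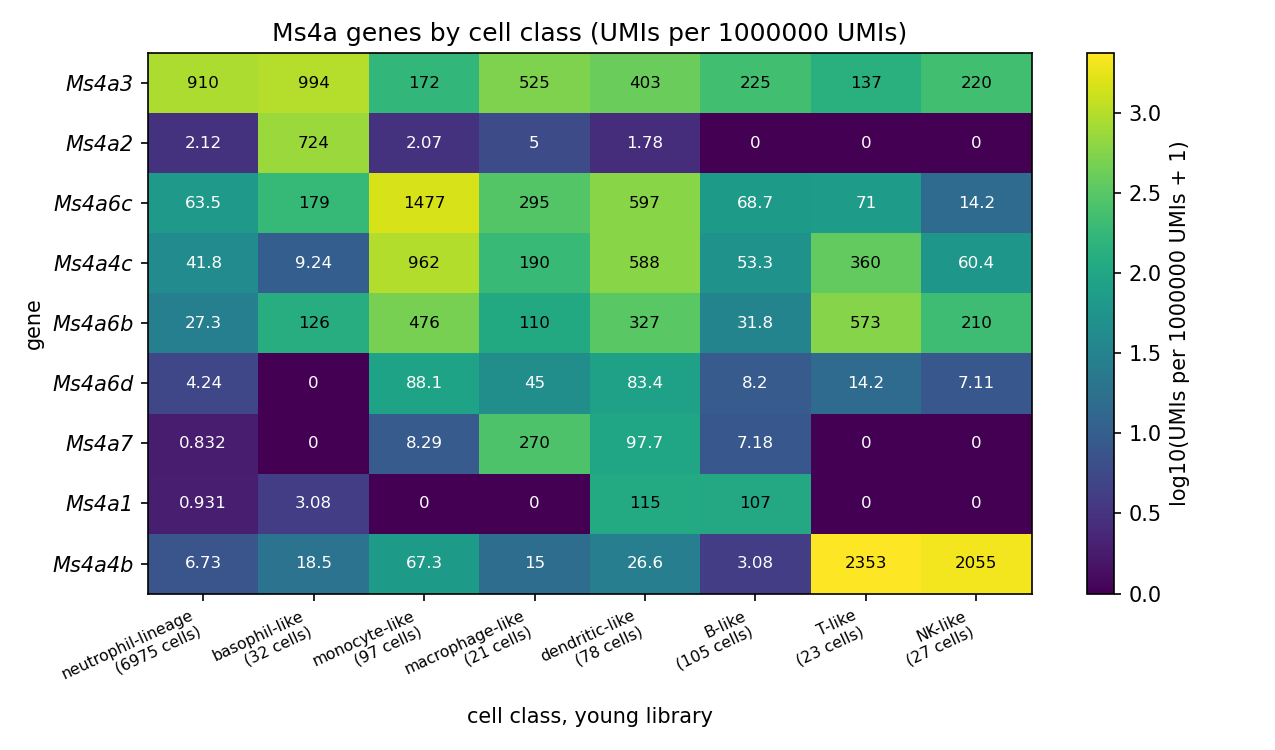
Levels of the 9 members in 8 cell classes of the young library, with the level in UMIs per 1000000 UMIs written in each cell and coloured by log10(level + 1). *Ms4a3* fills the neutrophil-lineage and basophil-like columns, *Ms4a2* the basophil-like one, *Ms4a6c* and *Ms4a4c* peak in monocyte-like cells and *Ms4a4b* in T-like and NK-like cells.

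By highest class in the young library, the 9 members fell to monocyte-like cells (3), basophil-like cells (2), T-like cells (2), macrophage-like cells (1) and dendritic-like cells (1). For *Ms4a1*, *Ms4a3*, *Ms4a4b*, *Ms4a6b* and *Ms4a6d* the interval of the highest class overlapped that of the second, so that their place in this count is not firm. The share of all genes highest in each class is not given. In clusters, with *Ms4a6b* and *Ms4a7* moved to the monocyte-like cells and *Ms4a1* to the B-like ones, the monocyte-like count was 5. The monocyte-like cluster also carried 4 dendritic and 3 macrophage markers, so that cells of these kinds may be counted in it. *Ms4a2* was highest in basophil-like cells, *Ms4a4c*, *Ms4a6c* and *Ms4a6d* in monocyte-like cells, both ways.

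The 4 monocyte-type members *Ms4a4c*, *Ms4a6b*, *Ms4a6c* and *Ms4a6d* were found together within cells. All 4 had a UMI in 12 of 36 control cells (33.3%), 175 of 388 young cells (45.1%) and 38 of 62 old cells (61.3%) of the monocyte-like cluster. No cell of this cluster lacked all 4. On its own, *Ms4a6d* had a UMI in 52.8% of the control, 46.9% of the young and 85.5% of the old cells. The share with all 4 that the separate rates of the genes would give was not computed. No link between the genes within cells is therefore read from these shares.

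Some monocyte-type UMIs lay in cells of the neutrophil lineage, and in the young library most of these were in cells with few granule genes. Of the young neutrophil-lineage cells, 312 had less than 3% of their UMIs from the 10 granule genes, a limit set after seeing the data, and these granule-poor cells had 1343 CPM of *Ms4a6c* and 903 of *Ms4a4c*. In the 6663 granule-rich young cells the levels were 17.1 (16.1 to 18.1) and 10.6 CPM (9.81 to 11.4). The same limit gave 30 granule-poor control and 53 granule-poor old cells. Of these, 76.7% and 84.9% had a *Ms4a6c* UMI, against 1.61% and 2.90% of the granule-rich control and old cells. A *Ms4a4c* UMI was in 70.0% and 64.2% of them, against 0.299% and 0.427% of the granule-rich ones. Granule-rich cells held 214 of 422 control and 404 of 878 old neutrophil-lineage UMIs of *Ms4a6c*. For *Ms4a6b* they held 82 of 127 control and 223 of 326 old UMIs, and for *Ms4a6d* 33 of 50 and 162 of 284. In the young library a UMI of *Ms4a6c* was found in 9.79% of the granule-rich cells, against 14.3% of B-like, 14.8% of NK-like and 13.04% of T-like cells. After thinning it was found in 3.57% against 5.71%, 3.70% and 8.70%. The granule-rich share was no higher than in classes that should lack the gene, which rest on 105, 27 and 23 cells, so that no expression is read from it over these cells as a whole. The source of these UMIs was not tested. *Ms4a4c* UMIs per *Ms4a6c* UMI were 0.617 in granule-rich cells and 0.704 in the monocyte-like cluster.

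Granule-rich cells of the first interval had more UMIs of the *Ms4a6* pair than those of the others. Among granule-rich young cells *Ms4a6c* had 33.6 CPM in interval 1 (17.3% of cells with a UMI, at a median of 12299 UMIs per cell, above the unthinned shares of the lymphoid classes) and 8.74 to 15.1 in the others, and *Ms4a6b* had 18.3 CPM in interval 1 and 5.48 to 8.15 in the others. *Ms4a6c* had 5.12 CPM in interval 1 of the granule-rich control cells and 9.01 in that of the old, against at most 2.16 and 3.53 elsewhere. In old cells *Ms4a6b* had 6.61 CPM in interval 1 and at most 0.919 elsewhere, and in control cells 2.33 and at most 0.552. *Ms4a4c* showed no such order, with 10.5 CPM in interval 1 of the young library and 8.70 to 14.3 in the others. Among granule-rich cells the *Ms4a6* pair was thus highest, in all 3 libraries, in the same interval as *Ms4a3*. With the granule-poor cells included this order did not hold for either gene of the pair in the young and control libraries. *Ms4a6c* had 71.7 CPM in interval 1 and 200.2 in interval 2 of the young library, and 5.86 and 10.3 in the control. *Ms4a6b* had 27.4 and 85.1 CPM in these intervals of the young library and 2.33 and 2.50 in the control. In the old library interval 1 stayed above interval 2, at 15.3 against 15.1 CPM for *Ms4a6c* and 7.75 against 3.60 for *Ms4a6b*.

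Between whole libraries, the members other than *Ms4a3* were much higher in the young library than in either of the others. Genes were compared where 1 or both libraries reached 10 CPM and counted from a difference of 1.5 times, a limit of size and not a test. Between old and young cells 5 members could be compared and 4 of them were lower in old cells, against 14.7% of 5761 genes. None of the 5 was higher, against 4.36%. The 4 called members, *Ms4a4b*, *Ms4a4c*, *Ms4a6b* and *Ms4a6c*, reached 10 CPM in the young library alone, so that they had to be lower in the other and the count by itself shows nothing more. Between control and young cells, both labelled 3 months, the same 4 of 5 were lower in control cells, against 6.62% of 5728 genes, and 0 were higher, against 1.59%, with the same limit on the count. Both comparisons use the young library.

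*Ms4a6c* had 5.58 CPM in control, 86.7 in young and 8.37 in old kept cells, a log2 ratio of old over young of -3.37 (-3.47 to -3.28) and of control over young of -3.96 (-4.09 to -3.83). *Ms4a4c* had 1.95, 59.0 and 1.77 CPM, with log2 ratios of -5.06 and -4.92. *Ms4a6b* had 1.60, 38.3 and 3.04 CPM, with log2 ratios of -3.66 and -4.58. All 3 monocyte-type genes were thus low in the old library and also in the control library of labelled age 3 months, where *Ms4a6b* and *Ms4a6c* were lower still and *Ms4a4c* overlapped the old level. *Ms4a4b* had 0.490, 22.0 and 0.309 CPM, 71.2 times (51.4 to 101) lower in old and 45.0 times (33.7 to 61.4) lower in control than in young cells.

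The 4 members under 10 CPM in every library were also highest in the young one. *Ms4a6d* had 0.667, 6.09 and 2.68 CPM in control, young and old cells, and *Ms4a2* had 2.31, 5.38 and 1.11 CPM. *Ms4a1* had 0.552, 3.16 and 0.142 CPM, and *Ms4a7* had 0.208, 2.45 and 0.201 CPM. In none of these 4 genes did the young interval overlap that of another library. The share of all genes under 10 CPM with such intervals is not given, so that this count is not read further.

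**Figure D3:**
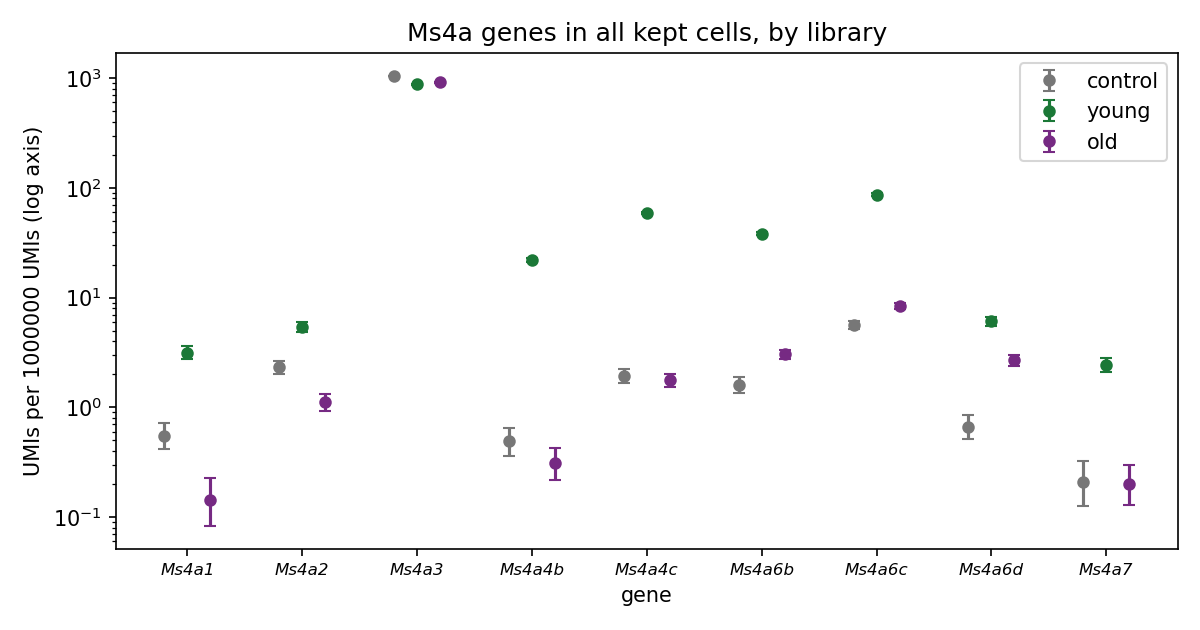
Levels of the 9 members over all kept cells, in UMIs per 1000000 UMIs on a log axis, with 1 point per library and exact 95% intervals as bars. The *Ms4a3* points lie between 879 and 1049.5 CPM, while for the other 8 members the young point is the highest.

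The classes in which these members lie also differed in number. Monocyte-like cells made up 0.0920% of the control, 1.31% of the young and 0.114% of the old kept cells, and cells of the monocyte-like cluster 0.368%, 5.26% and 0.640%. In a level over all cells, fewer cells of a type and less RNA per cell cannot be told apart. The library, the mice and the sort differ together, so that age and library cannot be told apart either.

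*Ms4a3* moved little between libraries. Its log2 ratio was 0.06 (0.04 to 0.07) for old over young, 0.26 (0.24 to 0.27) for control over young and -0.20 (-0.21 to -0.18) for old over control cells, which turned to 0.13 when taken as UMIs per cell. It was the only member with at least 10 CPM in the last of these comparisons, where 5.37% of 5470 genes were higher and 8.78% lower. In interval 1 the old level was 0.999 times the control level (0.988 to 1.01), and both were 1.12 times the young level. In interval 5, control cells were the highest, at 407 CPM (395 to 418).

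Within the monocyte-like cluster, where the numbers of cells count for less, the members parted. Between old and young cells 7 members could be compared, and 1 (*Ms4a6d*) was higher and 4 (*Ms4a4b*, *Ms4a4c*, *Ms4a6b* and *Ms4a7*) lower in old cells, against 9.97% higher and 22.2% lower of 6882 genes, with a median log2 ratio of -0.72 against -0.12. Of these, *Ms4a7* reached 10 CPM in young cells alone and so had to be lower in old cells. Between control and young cells 1 (*Ms4a3*) was higher and 3 (*Ms4a4c*, *Ms4a6b* and *Ms4a7*, the last of which reached 10 CPM in young cells alone) lower of 7, against 18.8% and 19.6% of 6958 genes, with a median of -0.55 against 0.04. Between old and control cells 1 (*Ms4a6d*) was higher and 1 (*Ms4a4c*) lower of 6, against 16.3% and 27.3% of 6805 genes, with a median of -0.12 against -0.16. The counts of higher members lie near the shares of all genes and are not read as a result about the members. *Ms4a3* enters these counts and medians, although no expression of its own was read above from young monocyte-like cells. In the fewer monocyte-like cells chosen by 2 genes, these counts were 1 higher and 1 lower for old over young, against 25.6% and 35.1% of 7965 genes, 1 higher and 3 lower for control over young, against 34.2% and 22.5% of 8245, and 4 higher and 1 lower for old over control, against 26.3% and 45.4% of 8740. Of the 4 higher in old than in control cells, *Ms4a7* rests on 1 UMI against 0 and *Ms4a4b* on 7 UMIs against 2.

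*Ms4a4c* differed most among the abundant members of this cluster. It had 529 CPM (449.6 to 617) in control, 1034 (1000.3 to 1068) in young and 269.9 (231 to 314) in old cells, and the 3 intervals did not overlap. The log2 ratio of old over young was -1.94 (-2.17 to -1.71), and that of old over control -0.97 (-1.29 to -0.65). In the fewer monocyte-like cells chosen by 2 genes, the control and old levels of *Ms4a4c* overlapped, so that its difference between old and control rests on the cluster. *Ms4a6b* had 223 (173 to 283), 562 (538 to 587) and 252 CPM (214.5 to 295), so that the young cells stood above both others, which overlapped.

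*Ms4a6c*, the most abundant member of the cluster, differed less. It had 1137 CPM (1019.6 to 1264) in control, 1468 (1428 to 1509) in young and 1091 (1010.4 to 1176) in old cells of the cluster, log2 ratios of -0.43 for old over young and -0.37 for control over young, both inside the limit of 1.5 times. It had a UMI in 97.2%, 99.7% and 100% of the cells.

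*Ms4a6d* went the other way. It had 103 CPM (70.0 to 146) in control, 110.0 (99.3 to 122) in young and 284 (244 to 329) in old cells, and was found in 52.8%, 46.9% and 85.5% of the cells. The log2 ratio of old over young was 1.37 (1.11 to 1.63) and of old over control 1.46 (0.91 to 2.06), while control over young was -0.09 (-0.67 to 0.44). The old library was thus above both libraries labelled 3 months, which overlapped. In the whole-library counts, where monocyte-like cells are more numerous in the young library, the same gene was lower in old than in young cells, at a log2 ratio of -1.18.

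The sparse members of the cluster follow with wide intervals. *Ms4a4b* had 43.2, 63.2 and 38.3 CPM. *Ms4a7* had 0 UMIs in control cells (a limit of 9.97 CPM at 3 counts), 40.2 CPM (33.8 to 47.4) in young and 9.58 CPM (3.52 to 20.9) in old cells. *Ms4a3* had 449, 259.8 and 335 CPM, at 23.1, 11.1 and 15.1 UMIs per 100 *Elane* UMIs. Against the 14.7, 11.7 and 19.5 of the whole libraries, this ratio was higher in the control cells of the cluster and lower in its young and old cells. *Ms4a1* and *Ms4a2* had 0 UMIs in control and old cells of the cluster.

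**Figure D4:**
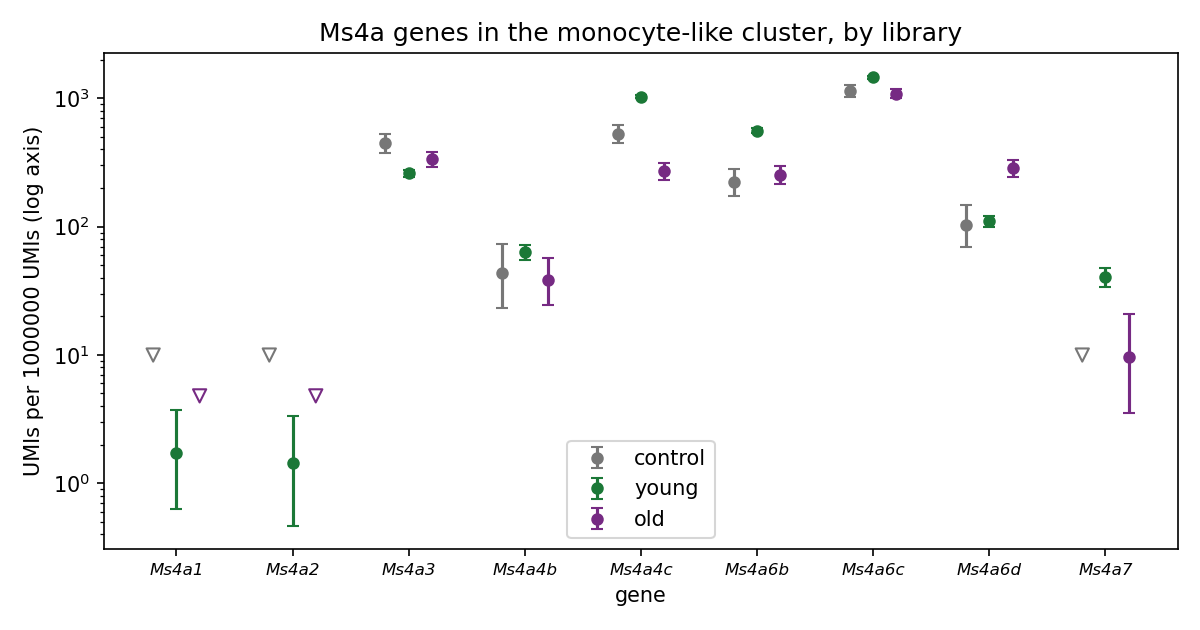
Levels of the 9 members in the monocyte-like cluster (36 control, 388 young and 62 old cells), in UMIs per 1000000 UMIs on a log axis, with exact 95% intervals as bars and open triangles at the level of 3 counts where a library had 0 UMIs. *Ms4a4c* and *Ms4a6b* are highest in young cells and *Ms4a6d* is highest in old cells.

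The same libraries differed in interferon-stimulated genes, which many cells raise together when interferon acts on them. The UMIs of 9 such genes were summed (*Isg15*, *Ifit1*, *Ifit3*, *Rtp4*, *Oasl2*, *Ifi27l2a*, *Irf7*, *Usp18* and *Rsad2*), and their level was 35.8 CPM in control, 1314 in young and 28.3 in old kept cells. In granule-rich cells it was 31.1, 961 and 26.8 CPM and in the monocyte-like cluster 1200.1, 6933 and 318 CPM. All 9 genes were at least 1.5 times lower in old and in control than in young kept cells. The shares of all genes were 14.7% of 5761 and 6.62% of 5728. Only 1 of the 9 reached 10 CPM in old or control cells. The others had to be lower there, so that the count by itself shows nothing more. In the monocyte-like cluster the order of the summed level, young above control above old, was the order of *Ms4a4c*, and also of *Ms4a6c* and *Ms4a4b*. It was not the order of *Ms4a6b*, *Ms4a7*, *Ms4a6d* or *Ms4a3*. *Ms4a6b* and *Ms4a7* were highest in young cells but lowest in control cells, *Ms4a6d* was highest in old cells and *Ms4a3* in control cells. For *Ms4a6b*, *Ms4a6c* and *Ms4a4b* the control and old levels overlapped. In the fewer monocyte-like cells chosen by 2 genes the sum was 439 CPM (317 to 594) in control and 454 CPM (329.6 to 609) in old cells, which overlapped as their *Ms4a4c* levels did. The part of interferon in the levels of *Ms4a4c* and the other members was not tested.

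The genes whose levels over the classes and intervals were most like those of each member were found among 10155 genes by Pearson's r of log2(CPM + 10) over 22 groups. The groups come from the same 3 libraries and the r values are descriptions. All groups other than the neutrophil-lineage intervals are classes of the young library, as no such class had 20 cells in control or old. A gene high in these classes and a gene high in the young library can therefore not be told apart by r. *Ms4a4c* was most like *Ifit3* (r = 0.97), an interferon-stimulated gene, and *Ms4a6b* most like *Sp110* (0.97). *Ms4a3* was most like *Gatm* (0.96) and *Prss57* (0.96), the latter a serine protease of neutrophil granules. *Ms4a2* was most like *Csrp3* (0.996) and *Fcer1a* (0.994), and *Ms4a1* most like *Fcrla* (0.99) and *Blnk* (0.98), both B cell genes. *Ms4a4b* was most like *Arl4c* (0.97) and *Ccl5* (0.96), *Ms4a6c* like *H2-DMa* (0.96), *Ms4a6d* like *Scpep1* (0.98) and *Ms4a7* like *Treml4* (0.95).

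Among granule-rich cells, from which the cells with few granule genes are removed, 3 members could be compared with the young library, and 2 (*Ms4a4c* and *Ms4a6c*) were lower in old cells, against 10.3% of 5594 genes, and the same 2 lower in control cells, against 3.8% of 5557 genes. Both reached 10 CPM in the young library alone and so had to be lower in the other. For *Ms4a6c* the levels were 2.25, 17.1 and 3.40 CPM in control, young and old cells, and as the young share of cells was no higher than in lymphoid classes, no difference in expression is read from them. Over all neutrophil-lineage cells of interval 1, *Ms4a6c* had 15.3 CPM in old and 5.86 in control cells, 2.62 times as high in old cells (log2 ratio 1.39, 1.10 to 1.68), where 5.56% of 6043 genes were higher. It reached 10 CPM there in the old library alone of these 2. These cells include the granule-poor ones, and among granule-rich cells of interval 1 neither of these 2 libraries reached 10 CPM.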

How the data were processed

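UMI counts per gene and cell, made and deposited by the authors without normalization, were used for 3 libraries prepared with the 10x Chromium 3′ kit. Per the labels and the submitters' processing notes, the authors used Cell Ranger 2.1.0 with STAR and the mm10 genome. Cells with fewer than 200 genes, over 20% mitochondrial UMIs or a UMI count outside the 5th to 95th percentile were removed, with percentiles taken in the control library alone and in young and old together. Depth is given in the report. A count of 0 allows 3 counts of the total, or 0.0251 to 0.0402 CPM over a library.

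The members, gene lists and limits were chosen with earlier results of these data known. Cells were placed by pairs of genes (at least 2 UMIs of each), in the order given, and cells left with at least 10 UMIs of the 10 granule genes formed the neutrophil lineage. The alternative classes were 28 Leiden clusters (resolution 1, 15 neighbours, 20 components of 2000 genes, Ms4a and class genes held out), of which 23 stayed unnamed because fewer than 3 check markers were at least 10 times above the other cells, and most of which came largely from 1 library. Doublets were not removed, since Scrublet's threshold called 2, 2 and 278 cells. UMIs were summed per group. Intervals are exact at 95% (Poisson for sums, conditional binomial for ratios, Clopper-Pearson for shares), and UMIs from PCR of 1 library cover no spread between mice. With 1 library per condition no test was made, and genes were counted from a difference of 1.5 times where 1 or both libraries reached 10 CPM. By name, the text gives the 9 members, other Ms4a symbols, class and check genes, partners of *Ms4a1* and *Ms4a2*, 9 interferon-stimulated genes and the genes most like each member, and 2 genes of these lists are not reported here. Granule-rich cells (at least 3% of UMIs from granule genes) and the monocyte-like cluster as a population for library comparisons were added after seeing the data. Positions come from GENCODE vM21, in which 27722 of 27998 gene identifiers were found, and promoters from RefSeq. The procedure was tested on simulated data with 200 changed genes. The tools were scanpy 1.11.5 with leidenalg 0.10.2, Biopython 1.88, scikit-learn 1.9.0, matplotlib 3.10.9, pandas 2.3.3, scipy 1.17.1 and numpy 2.4.6 in Python 3.11.15.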

Additional observations from a re-analysis of the deposited data

Results flagged for a closer look

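Signal in cells that the comparisons did not use was higher in the young library. In the cells removed by the filter, mostly those with very low or very high UMI counts, the 8 members other than *Ms4a3* summed to 281.6 CPM (269 to 295) in 984 young cells, against 20.5 CPM (18.1 to 23.1) in 1089 control cells and 21.3 CPM (19.3 to 23.5) in 916 old cells. The young library thus stood above both others in the removed cells, as it did in the kept ones.

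Of the 19 genes whose symbol begins with Ms4a, 10 were not among the members, and 7 of these had 0 UMIs in all 3 libraries. *Ms4a8a* had 119 UMIs in the young library, 28 in the control and 40 in the old library. Over all cells its level was 1.461 CPM (1.21 to 1.75) in young, 0.257 (0.171 to 0.371) in control and 0.290 (0.207 to 0.395) in old cells. In the monocyte-like cluster lay 97 of its 113 UMIs in young kept cells, 19 of 27 in control and 25 of 39 in old kept cells. *Ms4a4a* had 1, 6 and 1 UMIs in control, young and old cells, and *Ms4a4d* had 0, 2 and 0.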

How the results depend on the processing

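In the young library, each member other than *Ms4a3* was compared between 1 set class and the neutrophil lineage. That class was B-like for *Ms4a1*, basophil-like for *Ms4a2* and monocyte-like for the rest. *Ms4a4b* and *Ms4a7* were thus not taken in the classes where they were highest. Over the alternatives 55 of 55 values kept their direction, although 38 moved beyond their counting interval. Of 275 library ratios 260 kept their direction and 87 moved beyond that interval, 7 were reversed from a difference of at least 1.5 times, and 8 changed sign from a smaller one, among them *Ms4a3* of old over control with UMIs per cell (0.13). In monocyte-like cells only, *Ms4a6d* went to 2.11 and *Ms4a4b* to 0.10 and *Ms4a7* to 0.31 for old over young, *Ms4a6d* to 0.10 for control over young and *Ms4a4b* to 1.79 for old over control. *Ms4a6d* of old over young went to 0.19 in granule-rich cells and to 1.37 in the monocyte-like cluster, both chosen after seeing the data. The counts of members past 1.5 times moved with the cells used. In monocyte-like cells only, old over young had 1 higher and 1 lower, control over young 1 higher and 3 lower, and old over control 4 higher and 1 lower. Of these 4, *Ms4a7* rests on 1 UMI in old against 0 in control cells. With a minimum of 1 CPM, 8 were lower in old and 8 in control than in young cells, and old over control had 2 higher and 1 lower. The share of all genes at this minimum is not given, so that these counts are not read further. *Ms4a1*, *Ms4a4b* and *Ms4a7* reached 1 CPM in the young library alone and so had to be lower in the others. *Ms4a6d* did not reach it in control cells and so had to be lower there. In granule-rich cells 2 were lower in each comparison with young cells, and in the monocyte-like cluster each comparison had 1 higher, with 4 lower for old over young, 3 for control over young and 1 for old over control. Fewer members reach 10 CPM in some of these populations, and those that reach it in 1 library alone had to be higher there. The number of members highest in young basophil-like cells was 1 with at least 3 UMIs, with thinning and with Leiden clusters, in which 5 were highest in monocyte-like and 1 in T-like or NK-like cells (1 also with thinning). Between the *k* means clusters with the highest and the lowest *Elane*, the fold of *Ms4a3* was 7.09 in control, 9.77 in young and 8.66 in old cells. Between intervals 1 and 5 it was 5.19, 6.19 and 6.18 in control, young and old cells with an index of 4 genes. It was 7.19 in young and 6.68 in old cells with intervals made in each library, 6.93 in old cells with thinning and 6.72 in young granule-rich cells. The cause of these shifts was not tested.

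No paired analysis was possible because each condition is 1 library and the labels carry no replicate numbers. Leaving out a replicate was not possible for the same reason. Thinned counts of highest classes were not made for classes under 20 cells. With 0 to 12 cells in several control and old classes, levels of *Ms4a1*, *Ms4a4b* and *Ms4a7* could not be compared between libraries within their classes.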
